A study of Mus musculus with 4 samples.

Results

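Interleukin 33 (IL-33), its receptor and the classical members of the interleukin-1 family were followed in NIH3T3 fibroblasts (a permanent mouse cell line of embryonic origin) carrying either wild-type or deletion-mutant EGFR. The set was 10 of the 34816 names on the array (genes, or probes without a gene), matched by name: the ligands Il33, Il1a, Il1b and Il18, the receptor antagonist Il1rn, and the receptor chains Il1rl1, Il1rap, Il1r1, Il1r2 and Il18r1. They were represented by 15 of the 55670 non-control probes used, after 11 were left out. Of these, 8 probes of 5 genes (Il33, Il1rl1, Il1rap, Il1r1 and Il18) gave signals well above background throughout at least 1 group, and the other 5 genes were well above background on no array. The members were chosen by name with their measured differences between these groups already known, so those differences are a description and carry no test.

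Both groups were NIH3T3 cells at steady state with no treatment. One expressed wild-type EGFR (2 arrays) and the other a deletion mutant of EGFR (2 arrays), and EGFR is the receptor tyrosine kinase for epidermal growth factor. Which stretch of EGFR was deleted, which species it came from and how many clones were used are not stated in the labels. The design text says that cDNA was obtained in 2 separate experiments but not whether cultures were separate, so each p-value reflects array-to-array spread alone, possibly technical. One slide carried the 4 arrays, and each group had its own value of the second position number on it. That position and the group cannot be told apart. Each array measured 1 Cy3-labelled cRNA, and values are levels in log2, the signal of a probe minus the 75th percentile of its array. Levels of different probes are not compared, since probes differ in how well they bind.

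IL-33 is a cytokine kept in the nucleus of structural cells and released when they are damaged. It binds the receptor chain ST2, encoded by Il1rl1, which then recruits the accessory protein encoded by Il1rap and signals through MYD88, IRAK kinases and TRAF6 to NF-kB and MAP kinases. IL-1 alpha and IL-1 beta use the receptor Il1r1 with the same accessory protein, and IL-18 uses Il18r1. Il1rl1 was first found as a gene that growth factors and serum induce in 3T3 fibroblasts, and it gives both a membrane receptor (transcript variant 1) and a secreted decoy (transcript variant 2) from one gene. In fibroblasts the secreted form is the better known product.

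The results turn on the probes for Il33 and for both forms of Il1rl1, of which the first 30 of 60 bases are shown to identify them. They were read from the deposited files and lie on mm9 at chromosome 19, 30035101 to 30035160 (Il33), and at chromosome 1, 40504769 to 40504828 (variant 2 of Il1rl1), 40520014 to 40520073 and 40522187 to 40522246 (variant 1).
Il33: gtgaatctgtacgatatctttaaagtagta
Il1rl1 variant 2: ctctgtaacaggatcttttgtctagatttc
Il1rl1 variant 1, middle probe: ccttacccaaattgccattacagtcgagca
Il1rl1 variant 1, last probe: gccattgactccttgtgtgttttcttcatg
The deposited files assign the first Il1rl1 probe to transcript variant 2 and the others to variant 1. The forms of ST2 are named below by that assignment, and whether each probe reads its form alone was not tested. Where in the transcripts the probes lie was not analysed here.

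Il33 showed by far the largest difference of the set. Its level was -3.14 and -2.72 on the wild-type arrays and 2.07 and 2.03 on the deletion-mutant arrays. In units of intensity these are signals of 39.0 and 55.7 against 1371 and 1442. Both deletion-mutant arrays lay far above both wild-type arrays. The difference was 4.98 ± 0.213 (log2, SE from the SDs of the groups, n = 2 arrays each), or 31.6-fold, and 8 of 18093 features (a gene name or an unnamed probe) had a larger rise. The wild-type signals were close to the faintest ones that counted as well above background on those arrays, which were 25.9 and 33.4. With normexp background correction, whose offset of 50 compresses faint signals, the fold was 12.9.

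**Figure D1:**
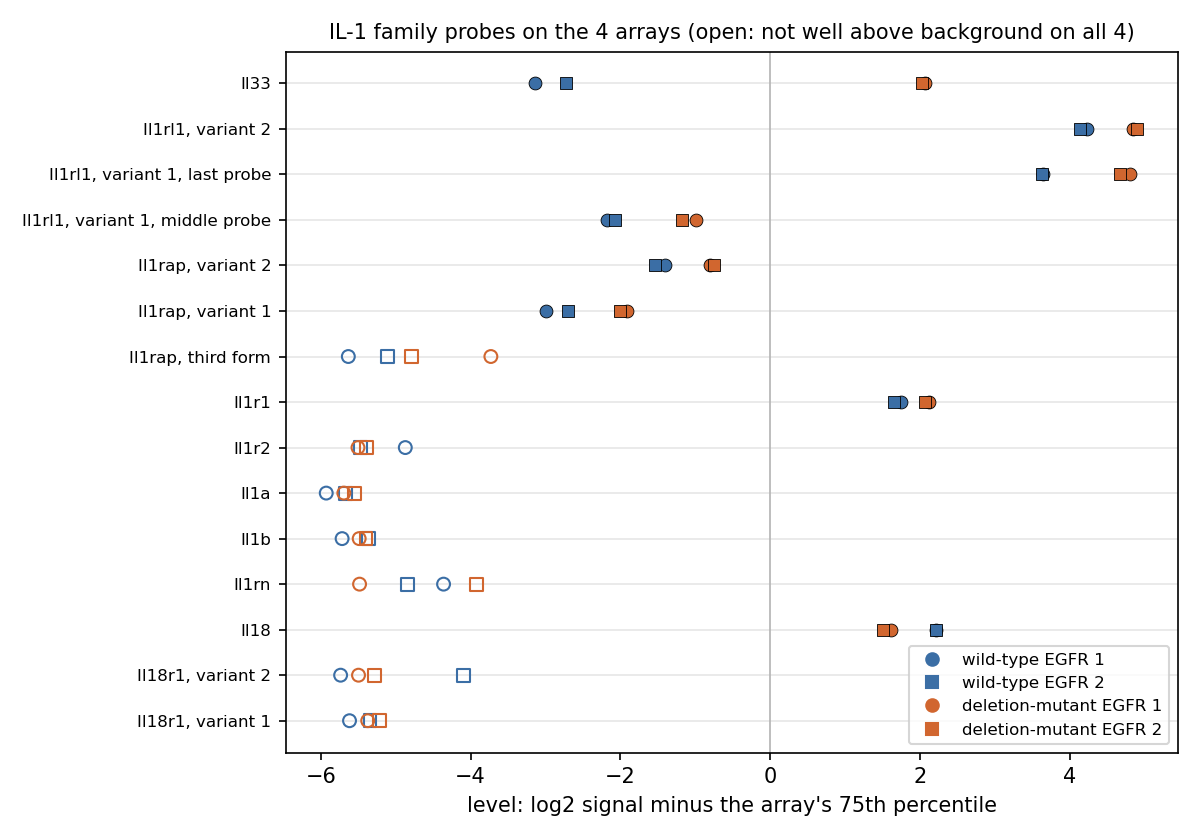
Level (log2 signal minus the 75th percentile of the array) of the 15 probes of the 10 genes on the 2 wild-type (blue) and 2 deletion-mutant (orange) arrays, with open symbols for probes not well above background on all 4 arrays. Il33 moves from about -2.93 to 2.05, the other measured probes move by less, and the 7 open probes stay at the left.

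RNA of Il1rl1, the gene of the IL-33 receptor, gave signals well above background in both groups. Receptor protein was not measured. The variant 2 probe of Il1rl1, for the secreted decoy, had levels of 4.23 and 4.14 in wild-type and 4.85 and 4.90 in deletion-mutant arrays. Signals were 6455 and 6459 against 9414 and 10520 intensity units, and the groups did not overlap. The difference was 0.69 ± 0.052 (log2), or 1.61-fold. The last probe of variant 1, for the membrane receptor, had 3.65 and 3.63 in wild-type and 4.81 and 4.67 in deletion-mutant arrays, a difference of 1.101 ± 0.067 or 2.14-fold. The middle probe of variant 1 had -2.17 and -2.07 against -0.99 and -1.17, a difference of 1.04 ± 0.104 or 2.05-fold. Its signals were faint, at 76.5 and 87.3 intensity units in wild-type and 164.4 and 156.1 in deletion-mutant arrays. Those of the last probe, assigned to the same variant, were 4315 and 4545 against 9153 and 8978. All 3 probes were higher on both deletion-mutant arrays than on either wild-type array.

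The probes assigned to the membrane form differed by more than the probe assigned to the decoy form. The excess was 0.41 ± 0.085 (log2) for the last probe and 0.35 ± 0.116 for the middle probe. Each SE combines the spreads of both probes as if they were independent. The probes were read on the same arrays, and that pairing was not used. For the last probe, a bright one, the difference stayed above that of the decoy probe under quantile normalization (0.85 against 0.45) and with normexp (1.07 against 0.68). The other scalings subtract a constant per array and cannot change the gap between probes, so they say nothing on this order. For the middle probe, which is dim, the order turned with normexp, at 0.65 against 0.68. How much of each form the cells held cannot be read from these values.

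Il1rap, the accessory chain shared by the receptors for IL-33 and IL-1, was higher in deletion-mutant arrays at both probes that could be measured. The probe of variant 2, a secreted form (chromosome 16, 26701498 to 26701557, mm9), had -1.40 and -1.53 in wild-type and -0.81 and -0.75 in deletion-mutant arrays. The probe of variant 1, the membrane form (26716515 to 26716574), had -2.99 and -2.69 against -1.91 and -2.001. Neither probe had overlapping groups. The differences were 0.69 ± 0.070 and 0.89 ± 0.156 (log2), or 1.61-fold and 1.85-fold. They differed from each other by 0.20 ± 0.171, an SE that again leaves out the pairing by array. With normexp they were 0.44 and 0.40, so the order of the forms turned. Another Il1rap probe, for a transcript that ends further downstream, was well above background on no array.

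Il1r1, the signalling receptor for IL-1 alpha and IL-1 beta, showed a small difference, the smallest among the measured members except under median scaling and in the authors' values, where that of Il18 was smaller. Its levels were 1.75 and 1.65 in wild-type and 2.12 and 2.07 in deletion-mutant arrays, a difference of 0.40 ± 0.058 (log2) or 1.32-fold. The groups did not overlap, but the size depended on the scaling, from 0.20 with scaling to detected probes to 0.58 in the authors' values. Il18, the ligand of the IL-18 receptor, was the one measured member that was lower in deletion-mutant cells. It had 2.22 and 2.22 in wild-type and 1.62 and 1.504 in deletion-mutant arrays, a difference of -0.66 ± 0.057 (log2) or 1.58-fold lower, which lay between -0.86 and -0.48 under the other ways of processing.

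The remaining members stayed below the well-above-background mark throughout. These were the ligands Il1a and Il1b, the antagonist Il1rn, the decoy receptor Il1r2 and the IL-18 receptor chain Il18r1. Il1b was printed 10 times on each array, and 0 of its 10 spots were well above background on any of them; the brightest single spot had 21.45 intensity units, in wild-type replicate 2. Il1a signals ran from 5.66 to 7.53, Il1r2 from 7.21 to 11.8, Il1rn from 7.31 to 23.2 and the 2 Il18r1 probes from 6.47 to 21.45. A difference between groups was not detectable at these signals, which lie below the faintest ones counted as well above background.

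In the test across all 18093 features (limma, Benjamini-Hochberg adjusted p under 0.05), 58.8% passed, 34.6% higher and 24.2% lower in deletion-mutant cells, and 13.4% passed with a difference of at least 2-fold. All 5 measured members were among those that passed, 4 higher and 1 lower, and the groups did not overlap at any of their 8 measured probes, as for 81.7% of all features. Since the members were chosen with this comparison known and had to clear the background filter, nothing is read from these counts. Besides Il33, the measured members had differences that are common on these arrays: 25.3% of features differed by at least as much as Il1rl1 (its variant 2 probe), 25.5% by as much as Il1rap, 27% by as much as Il18 and 46.9% by as much as Il1r1. For Il33 the share was 0.177%.

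**Figure D2:**
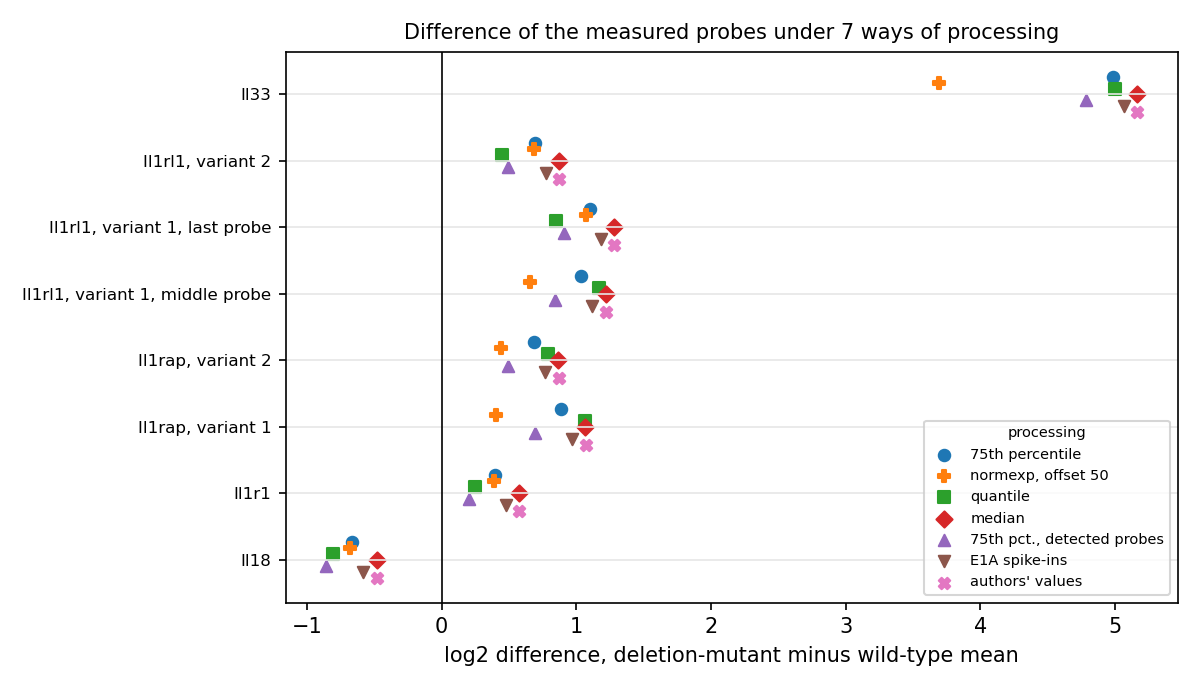
Log2 difference (deletion-mutant minus wild-type mean) of the 8 measured probes under the 75th percentile and 6 other ways of processing the signals, each with its own symbol. Il33 lies between 3.69 and 5.16, every probe of Il1rl1, Il1rap and Il1r1 stays right of 0 and Il18 stays left of it.

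The receptor genes lie side by side on chromosome 1, in the order Il1r2, Il1r1, Il1rl2, Il1rl1, Il18r1 and Il18rap. By the probe positions on mm9, Il1r1 lies at -132.1 kb from the first Il1rl1 probe and Il18rap at 101 kb. Of these 6 genes, Il1r1 and Il1rl1 were well above background, and the 4 others were not on any array. The last probe of Il1rl1 variant 1 was also found in the RefSeq promoter table (GRCm38.p6): it matches chromosome 1 from 40465342 to 40465401 and ends at base -151 from the first listed start of Il18r1. This Il1rl1 probe, with a signal of 4315 to 9153 intensity units, matches the upstream window of a gene whose own probes were well above background on no array. Among other named genes within 200 kb of the cluster, only the kinase gene Map4k4 was measured, and its brightest probe was higher by 0.31 (log2, limma adjusted p = 0.0273).

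**Figure D3:**
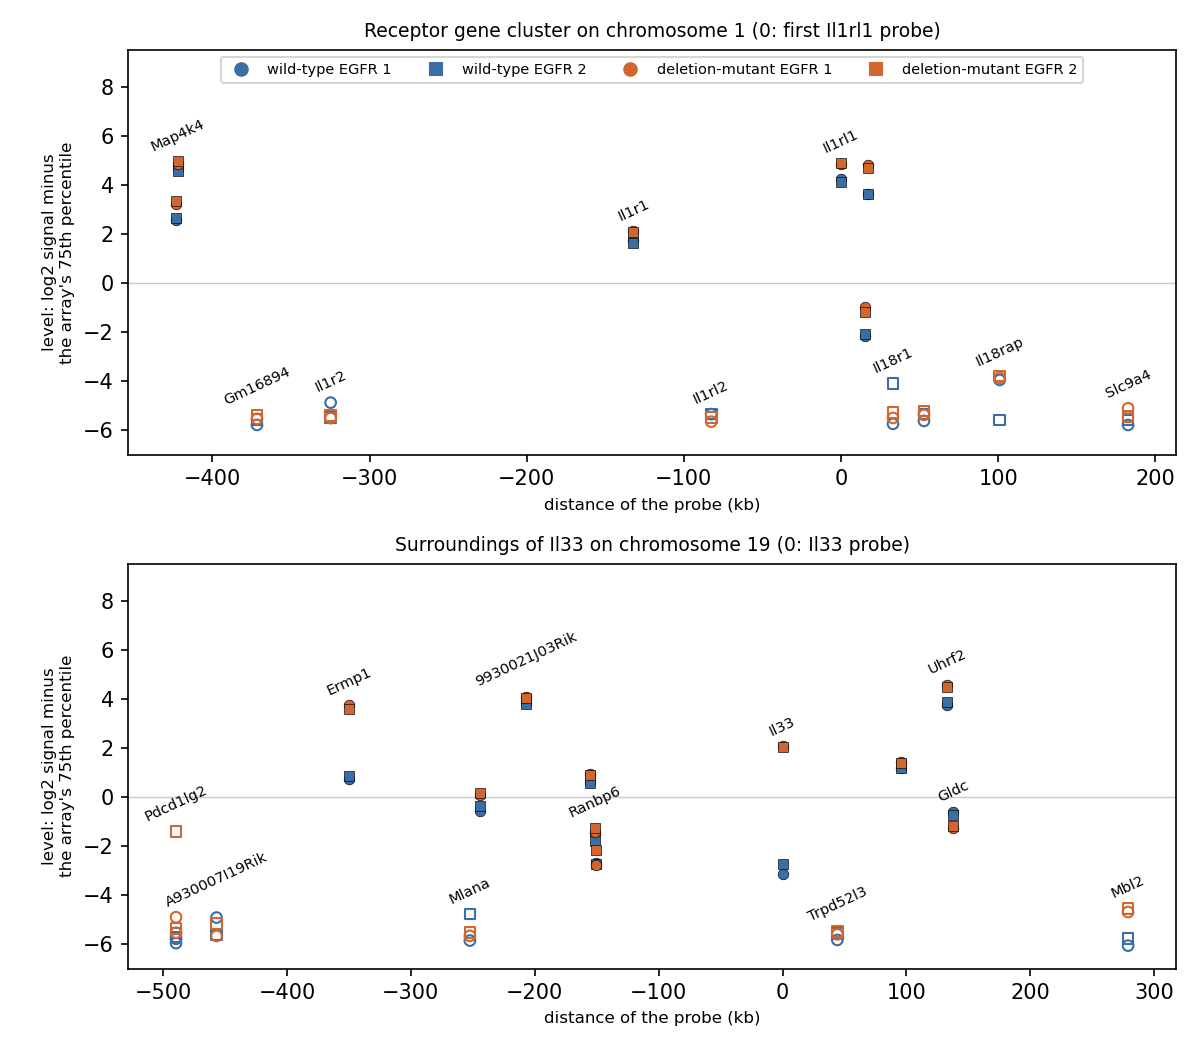
Level (log2 signal minus the 75th percentile of the array) of each probe of a named gene against its distance in kb, around the receptor genes on chromosome 1 (top) and around Il33 on chromosome 19 (bottom); blue is wild-type, orange deletion-mutant, and open symbols mark probes not well above background on all 4 arrays. In the lower panel the gap between colours is widest at Il33 (4.98) and next at Ermp1 (2.88).

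Around Il33 on chromosome 19, 10 other named genes had probes within 500 kb, and 5 of them were measured. In the test across all features 3 of them rose and 1 fell, where 34.6% of all features rose and 24.2% fell, and with 5 genes nothing is read from that count. Ermp1, a metallopeptidase of the endoplasmic reticulum at -350.1 kb from Il33, had 0.72 and 0.86 in wild-type and 3.75 and 3.60 in deletion-mutant arrays, 7.37-fold higher (limma adjusted p = 0.00027). The ubiquitin ligase gene Uhrf2 was higher by 0.73 (log2, limma adjusted p = 0.0027) at its brightest probe, 132.9 kb after Il33. At its other probe, 95.7 kb after Il33, it was higher by 0.22. The brightest probe of 9930021J03Rik was higher by 0.24 (limma adjusted p = 0.0239), and its other probes by 0.58 and 0.31. Gldc, which encodes the glycine decarboxylase of the glycine cleavage system, was lower by 0.56 (log2 difference -0.56, adjusted p = 0.00375), and Ranbp6 did not pass (adjusted p = 0.0856). The closest gene, Trpd52l3, 44.2 kb away, was not well above background on any array. The window was set by distance, after the values of Il33 were known.

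RefSeq lists 2 starts for Il33, 20677 bases apart, and 2 for Il1rl1, 10059 bases apart, of which the upstream one of Il1rl1 is known from blood cells and the downstream one from fibroblasts. The 250 bases before each start are shown because Il33 moved furthest and Il1rl1 encodes its receptor. They are on GRCm38.p6, plus strand, at chr19:29924863-29925112 and chr19:29945540-29945789 for Il33 and at chr1:40429320-40429569 and chr1:40439379-40439628 for Il1rl1. Capitals mark the motif TATAAA.
Il33 start 1: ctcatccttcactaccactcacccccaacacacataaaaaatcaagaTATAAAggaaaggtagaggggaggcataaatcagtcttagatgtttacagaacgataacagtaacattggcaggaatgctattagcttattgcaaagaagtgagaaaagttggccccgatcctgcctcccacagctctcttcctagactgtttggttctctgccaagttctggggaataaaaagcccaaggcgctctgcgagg
Il33 start 2: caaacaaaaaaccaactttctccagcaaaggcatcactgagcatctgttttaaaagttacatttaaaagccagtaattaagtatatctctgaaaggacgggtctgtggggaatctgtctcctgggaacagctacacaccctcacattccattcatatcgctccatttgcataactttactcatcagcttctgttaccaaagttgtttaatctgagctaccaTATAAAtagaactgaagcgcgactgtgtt
Il1rl1 start 1: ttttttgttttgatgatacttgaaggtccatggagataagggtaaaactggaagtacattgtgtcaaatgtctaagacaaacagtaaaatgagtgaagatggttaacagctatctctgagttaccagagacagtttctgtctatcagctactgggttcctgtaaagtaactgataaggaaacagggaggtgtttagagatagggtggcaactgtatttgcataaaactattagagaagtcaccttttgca
Il1rl1 start 2: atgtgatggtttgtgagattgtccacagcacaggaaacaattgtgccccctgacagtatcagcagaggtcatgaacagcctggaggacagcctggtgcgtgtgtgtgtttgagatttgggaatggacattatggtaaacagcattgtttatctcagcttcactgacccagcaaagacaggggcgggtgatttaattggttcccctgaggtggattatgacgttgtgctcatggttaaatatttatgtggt
TATAAA stood at base -29 before the second Il33 start and at -203 before the first, and in neither Il1rl1 window. Among the 17 windows of the members it stood in 5, those of Il33 and also those of Il1a (base -32), Il1b (base -31) and Il18 (base -175). Il1a and Il1b had no signal well above background, and Il18 was lower in deletion-mutant cells. It was found in 12.4% of all 32851 upstream windows, searched on both strands.

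The same windows were searched on both strands for TGANTCA, the AP-1 site, for CCGGAAGT, an ETS site, for the NF-kB site and for the CArG box of serum response factor. None of these letters was in an Il33 or Il1rl1 window. Among the 17 windows of the 10 members, TGANTCA stood in 2, those of Il1a (base -12) and of 1 start of Il1rn (base -141), both of which were genes without signal above background. It stood in 6.75% of all windows. The NF-kB site was in 1 window, of Il1r1, against 7.25% of all, and CCGGAAGT and the CArG box were in 0 of 17, against 2.88% and 1.47%. A missing match says only that these letters are not in this window.

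Other ligands, receptors and decoys of the family were mostly silent. Of 11 such genes, 9 were well above background on no array, among them Il1rl2, Il18rap and the IL-36 ligands. The remaining 2 were higher in deletion-mutant cells, where 34.6% of all features were. Sigirr, a receptor that dampens IL-1 and IL-33 signalling, rose 1.99-fold (log2 difference 1.00 ± 0.065, SE, n = 2 per group; adjusted p = 0.000946 by limma). Its signals were faint, and with normexp the log2 difference was 0.58. Il18bp, the secreted antagonist of IL-18, rose 1.21-fold (adjusted p = 0.0384), a call that was lost with normexp (0.0536) and with scaling to detected probes (0.3999).

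Of 27 genes that carry the signal from the IL-1 receptor family, 26 were measured, and 12 rose and 4 fell with the mutant receptor, 61.5% of them against 58.8% of all features. The median difference was 0.24 (log2), against 0.066 over all features. The split turned with the scaling: quantile normalization gave 5 higher and 7 lower, scaling to detected probes 3 and 8, and median scaling 17 and 3. Leaving out wild-type replicate 1 or wild-type replicate 2 left 8 calls in place of 16. The largest rises were those of the MAP kinase kinase Map2k6 (1.93-fold, adjusted p = 0.00208) and Ube2n, the enzyme that makes the ubiquitin chains of TRAF6 (1.58-fold). The genes that fell were the ubiquitin ligase Peli2 (2.00-fold), the kinase Irak4 (1.67-fold, log2 difference -0.39 with normexp), Tab3 (-0.28, log2) and Irak3. Irak3, an inhibitor of the pathway, had no signal well above background in the mutant and cleared the background filter through wild-type arrays alone. It was at least 2.00-fold lower by the bound from background (log2 difference -0.53 with normexp), and no p-value is read for it. With the filter on all 4 arrays, which leaves Irak3 out, 25 genes of the list were measured, with 14 higher and 4 lower. Tab3 did not pass under median scaling (adjusted p = 0.294). The adaptor Myd88 (-0.15), Irak1 (0.35) and Traf6 (0.25) did not pass, although Traf6 passed in the other direction with normexp (-0.26, limma adjusted p = 0.00923).

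The genes that process or release IL-1 family cytokines included 12 measured of 21, with 7 higher and 2 lower, 75% of those measured against 58.8% of all features, and a median of 0.31 (log2) against 0.066. The pore-forming gasdermin Dfna5 (now Gsdme) rose 2.75-fold (1.46 ± 0.069, SE, n = 2 per group; adjusted p = 0.000538 by limma), and Casp8, an initiator caspase that can also cleave IL-1 beta, rose 2.001-fold. Naip2, an inflammasome receptor, fell 2.22-fold and Casp4 by 0.32 (log2 difference -0.32), which did not pass under median scaling (adjusted p = 0.124). Casp1, which matures IL-1 beta and IL-18, and the inflammasome gene Nlrp3 did not clear the background filter. The calpain subunits Capn2 (0.46) and Capns1 (0.36) rose, the latter not under quantile normalization (adjusted p = 0.0814), and Capn1 (-0.14) did not pass.

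**Figure D4:**
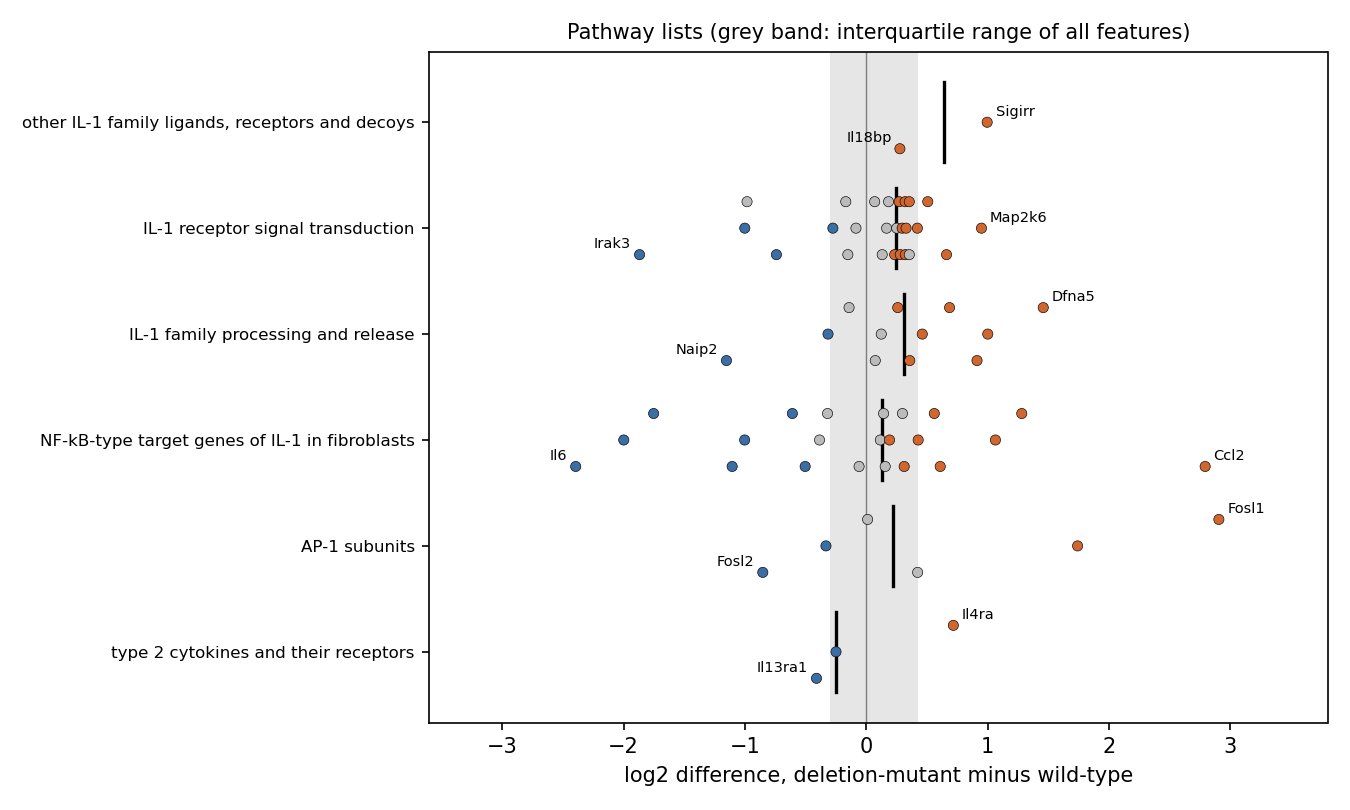
Log2 difference (deletion-mutant minus wild-type) of each measured gene in 6 lists around the IL-1 family, coloured where limma called it higher (orange) or lower (blue) and grey where not, with the list median as a bar and the interquartile range of all features as a grey band. The IL-1 target list reaches from Il6 on the left to Ccl2 (2.79) on the right. Il6 had no signal well above background on deletion-mutant arrays.

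Genes that IL-1 induces through NF-kB in fibroblasts went both ways. Of 22 measured of 30, 8 were higher and 7 lower, 68.2% of those measured against 58.8% of all features, and the median was 0.13 (log2) against 0.066. The chemokine genes Ccl2, 6.92-fold higher (2.79 ± 0.055, SE, n = 2 per group; adjusted p = 0.000146 by limma), and Ccl7, 2.43-fold higher, led the rises. The cytokine Il6 was at least 1.285-fold lower, by the bound that its missing signal in deletion-mutant arrays allows. Its log2 difference was -0.47 with normexp. Since only its wild-type signals cleared the background filter, no p-value is read for it. The chemokine Cxcl5, above background on 1 of 2 deletion-mutant arrays, was lower by a log2 difference of -1.998 that shrank to -0.91 with normexp, and the adhesion molecule Vcam1 was 3.37-fold lower. The inhibitor Nfkbia rose by 0.31 (log2), a call lost under quantile normalization (adjusted p = 0.349), and Tnfaip3 (0.14) and Nfkbiz (-0.39), which are induced early by NF-kB, did not pass. Median scaling split the list into 12 higher and 7 lower, and scaling to detected probes into 6 and 8. Il6, Cxcl5 and Cxcl1, which were among the genes that fell, cleared the background filter through the wild-type arrays alone. With the filter on all 4 arrays, 18 genes of the list were measured, with 8 higher and 4 lower.

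Of 7 AP-1 subunits, the factors tied to growth factor induction of Il1rl1, 6 were measured. Of these, 4 passed, 66.7% against 58.8% of all features. Fosl1 rose 7.49-fold and Jun 3.34-fold, whereas Fosl2 fell by 0.85 (log2 difference -0.85, limma adjusted p = 0.000942) and Jund by 0.33 (-0.33, not passing under median scaling, adjusted p = 0.0868). Among 12 type 2 cytokines and receptors, which act downstream of IL-33 in immune cells, 3 were measured. All 3 passed, where 58.8% of all features did, and with 3 genes nothing is read from that count. The interleukin 4 receptor Il4ra rose by 0.72, and Il13ra1 (-0.41) and Crlf2 (-0.25) fell, with adjusted p between 0.0227 and 0.0235. None of these 3 calls was left without wild-type replicate 1 or without wild-type replicate 2. Without deletion-mutant replicate 1, and under median scaling, 1 of them was left.

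For Il33 the features with the most similar levels were sought among 11154 genes above background on all 4 arrays, by Euclidean distance of the 4 centred log2 values. The nearest were Rgs16 (distance 0.449), Upp1 (0.475), Ngef (0.558), Evi2a (0.561) and Gch1 (0.640). For the variant 2 probe of Il1rl1 they were Rapgef3 (0.00857), Polr3e (0.01555), Btn1a1 (0.0182), Gm8675 (0.0234) and Rrm1 (0.0243). With 4 arrays in 2 groups, such a match says little more than that the genes differed by a like amount, and the smaller distances around Il1rl1 go with a difference that many features share.

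Markers of cells that are known sources of IL-33 or ST2 were checked beside these values. Of 16 markers of leukocytes and mast cells, 8 were well above background on no array, including Ptprc, Kit, Cpa3 and Fcer1a. The other 8 were measured, and Csf1r, Cd4, Cd3e, Cd68 and Tpsb2 among them were well above background on all 4 arrays. The summed signal of the list, in multiples of the 75th percentile, was 41.0 to 43.5 in wild-type and 25.7 to 26.1 in deletion-mutant arrays. Without Itgam, which made up most of the sum, it was 7.997 to 8.02 and 7.53 to 7.995. Of the list, 0 rose while Itgam (-0.92) and Gata3 (-0.61) fell, 25% of those measured, where 58.8% of all features passed and 24.2% were lower. Of 8 endothelial markers, 6 including Cdh5 and Tie1 were well above background on no array, with sums of 6.63 to 7.20 and 6.675 to 6.805. Kdr was well above background on all 4 arrays and did not pass (-0.03). Pecam1 fell by 0.40 (-0.40, not under quantile normalization, limma adjusted p = 0.0505). Of 9 epithelial markers, 5 including Epcam and Cdh1 were well above background on no array. Krt8 rose at least 2.79-fold by the bound from background, although its log2 difference was 0.72 with normexp, Krt14 fell by 0.42 (log2 difference -0.42), and the sums were 0.563 to 0.638 and 0.770 to 0.854. All 10 fibroblast markers were measured, with 1 higher (Vim, 0.23, not with scaling to detected probes, adjusted p = 0.667) and 7 lower, where 58.8% of all features passed and 24.2% were lower, and sums of 1743 to 1795 and 1310 to 1348. The part of these lists in the results on Il33 and its receptor was not tested. In bulk RNA, a change in the share of cells and a change per cell cannot be told apart.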

How the data were processed

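RNA of 4 samples was measured on 1-colour Agilent arrays. Per the file headers, spots were read with Feature Extraction 10.10.1.1 and probes are placed on mm9. The deposited files hold the processed signal, background-subtracted, as an intensity on a linear scale, and flags of 0 or 1 (other values) per spot. The authors also deposited log2 values, which equal the log2 processed signal plus a constant per array (within 0.01 for 100% of probes). Their direction and scale are therefore known, and any test the authors ran on them was not used here.

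Flagged and control spots were left out, replicate spots were combined as log2 means, and the 75th percentile of each array (327 to 366.6 intensity units) was subtracted. Between 42.9% and 46.9% of probes were well above background per array, and 0 were saturated; the number of arrays limits the precision. Probes well above background on both arrays of a group were kept, and the brightest stood for its gene (18093 features). Groups were compared with limma 3.58.1 in R 4.3.3 on 2 residual degrees of freedom, with Benjamini-Hochberg adjustment at 0.05. In simulated data with 18093 features, 100 were changed 2-fold and 100 were changed 4-fold, with variances shuffled across features. Of these, 59% and 85% were recovered, with 8 false calls. Far fewer features changed there than passed in the data (58.8%), so these shares do not give the power or the false calls of the comparison itself. A lower bound of a fold sets the bright group against the higher of the probe's own signal and the faintest signal well above background. Promoter sequences are from RefSeq (GRCm38.p6), in which all 10 members had an entry.

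The members, lists and rules were chosen with earlier results of these data known. Named were all members, and of each list the 2 largest rises and falls that passed (all where 5 or fewer passed); some further list members are named after their values were seen, as are the motif TATAAA and the genomic windows. From the processing and release list, 1 gene was left out and is not reported here. Alternatives were normexp, quantile, median, spike-in and detected-probe scaling, the authors' values, other filters, an intensity trend, the mean of a gene's probes, a replicate block and leaving out each array.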

Additional observations from a re-analysis of the deposited data

How the results depend on the processing

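The directions of Il33, Il1rl1, Il1rap, Il1r1 and Il18 held in each of the 13 alternatives run for them, but not all of these could have turned one. A change of filter returns the same values, as does the mean of a gene's probes for Il33, Il1r1 and Il18. Leaving out an array cannot turn a direction where the groups do not overlap. Only the other ways of scaling and of background correction could have done so. Under these, the differences ranged from 3.69 to 5.16 (log2) for Il33, 0.45 to 0.87 for Il1rl1 and 0.44 to 0.87 for Il1rap. They ranged from 0.20 to 0.58 for Il1r1 and from -0.86 to -0.48 for Il18. Over all 13 alternatives the highest were 5.19 for Il33, without wild-type replicate 2, and 0.94 for Il1rl1, with the mean of its probes. Scaling shifted the median of all features by 0.18 under median scaling and by -0.19 with scaling to detected probes, so that small differences have no settled direction. Of all called features, 58.9% were higher, against 73.5% under median scaling, 65.9% (spike-ins), 51.1% (quantile) and 38.9% (detected probes).

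Without a filter on dim probes, 6466 features passed in place of 10631, with 34816 features tested, and the lists had 6 calls (signal transduction), 5 (processing), 8 (IL-1 targets), 1 (other family members) and 0 (type 2 cytokines, where 3 had passed). Leaving out 1 array gave 7815 to 9561 features, 8 to 14 calls in signal transduction, 6 to 8 in processing, 10 to 15 among IL-1 targets, 1 to 2 among other family members and 0 to 2 among type 2 genes. The other family members had 1 call in place of 2 with normexp, scaling to detected probes or an intensity trend. The type 2 list had 1 under median scaling and in the authors' values. The cause was not tested. AP-1 subunits had 4 or 5 calls, not always of the same genes: under median scaling Jund was lost (adjusted p = 0.0868) and Junb gained (0.0252).

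With the replicate number as a block, 9990 features passed, 9640 of them shared with the fit without it. Deviations of same-numbered arrays correlated at 0.0472 across features, so the number is not taken as a pairing. A fit without 1 array leaves 1 array in its group, which is assumed to vary like the other. The signal of Il33 in wild-type arrays, close to background, limits the precision of its fold.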
